A study of Mus musculus with 8 samples.

Results

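Bone marrow (BM) neutrophils that the authors' clustering placed in cluster 0 were described here as 1 population. The members were all cells with the value 0 in the deposited cluster column whose name marked them as marrow cells, 655 of the 710 marrow cells and of 1421 cells in all. They were compared with the cells of cluster 1 (479 cells) and cluster 2 (270 cells), nearly all from peripheral blood (PB). Cluster 0 itself held 672 cells, and its other 17 cells came from blood. Because the clusters were drawn from the expression values, every difference in expression between cluster 0 and the other clusters is given as a description, without a test.

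The study profiled single neutrophils from blood and marrow of C57BL/6J mice aged 7 to 12 weeks, injected intraperitoneally with PBS or with 0.5 mg/kg lipopolysaccharide (LPS), a bacterial cell wall component that sets off systemic inflammation. Samples of LPS-primed cells were labelled 4 h and samples of PBS-primed cells 0 h, whereas the study's methods give 4 h after either injection. Neutrophils were enriched with a negative selection kit and sequenced with SCRB-seq, a plate method that counts the 3′ ends of transcripts with unique molecular identifiers (UMIs). No transgene or deletion was present in these animals, and no source used here says how many mice gave each sample.

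Neutrophils are made in the marrow, where granules form in sequence: primary (azurophil) granules at the promyelocyte stage, secondary (specific) granules at the myelocyte and metamyelocyte stages, then tertiary granules and secretory vesicles in band and segmented cells. The messenger RNA of each granule protein is made mainly while its granule is being built and then declines, so granule transcripts are widely used to order neutrophils by maturity. C/EBP-ε (Cebpe) is the transcription factor known for driving the secondary granule genes, and mature cells leave for the blood under the chemokine receptors Cxcr2 and Cxcr4.

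Of the members, 332 lay on 4 plates that matched 1 labelled sample each. PBS-primed BM sample 1 gave 76 of 83 marrow cells, PBS-primed BM sample 2 gave 86 of 92, LPS-primed BM sample 1 gave 84 of 91 and LPS-primed BM sample 2 gave 86 of 92. The other 323 members came from a second sequencing batch whose cell names give the treatment but no sample, 236 PBS-primed and 87 LPS-primed cells. Their values are given as pooled values without an error. In all 92.3% of marrow cells were in cluster 0 (exact 95% interval 90.04 to 94.11%, counting error only). Summed counts over the members were 6117863, 7991715, 7270797 and 8063696 UMIs in the 4 samples in the order above. The 9 plates reused 94 of 95 barcode numbers. Labels do not say that the samples were separate mice, so p-values measure the spread between these plates, which may be technical. PBS-primed BM sample 1 stood apart: after each cell was thinned to 5000 UMIs, its median was 450 genes per cell, against 709, 798 and 794 in the other samples.

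The 6 transcripts that mark cluster 0 were Camp (cathelicidin antimicrobial peptide), Ltf (lactoferrin, an iron binder) and Ngp (neutrophilic granule protein), all secondary granule proteins, with Cd177 (a surface and granule glycoprotein), Ly6g (the surface antigen used to gate mouse neutrophils) and Adpgk (ADP-dependent glucokinase). In mm9 Camp lay at chr9:109749889-109751970 on the minus strand, Ngp at chr9:110322254-110325514 and Ltf at chr9:110921796-110945270 on the plus strand. Cd177 lay at chr7:25529004-25545330 (minus strand), Ly6g at chr15:74987123-74989169 (plus strand) and Adpgk at chr9:59139379-59166197 (plus strand). All 6 are annotated as protein coding.

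The 250 bases before the RefSeq transcription start are shown for Camp, Ngp and Ltf, whose transcripts moved together from cell to cell within cluster 0, and for Retnlg (resistin-like gamma, chr16:48872721-48874611), which moved against them. Capitals mark matches on either strand to the C/EBP core TTGCNNAA or to the ETS core GAGGAA. No match to either motif overlapped a match to the other, and each stretch had 1 exact match in mm9, at chr9:109751971-109752220 for Camp (minus strand), chr9:110322062-110322311 for Ngp, chr9:110921546-110921795 for Ltf and chr16:48872471-48872720 for Retnlg (plus strand). The RefSeq start of Ngp lies inside the gene as GENCODE places it, so its window reaches past the annotated gene start.
Camp: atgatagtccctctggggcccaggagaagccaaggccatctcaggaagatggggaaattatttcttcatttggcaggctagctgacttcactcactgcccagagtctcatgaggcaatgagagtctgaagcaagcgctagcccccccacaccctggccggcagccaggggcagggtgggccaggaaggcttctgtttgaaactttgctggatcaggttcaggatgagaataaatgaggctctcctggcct
Ngp: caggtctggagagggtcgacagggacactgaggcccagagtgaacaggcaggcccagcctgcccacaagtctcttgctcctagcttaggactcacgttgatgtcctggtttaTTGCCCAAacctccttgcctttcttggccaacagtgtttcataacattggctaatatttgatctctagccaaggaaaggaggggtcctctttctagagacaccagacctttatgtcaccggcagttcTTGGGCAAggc
Ltf: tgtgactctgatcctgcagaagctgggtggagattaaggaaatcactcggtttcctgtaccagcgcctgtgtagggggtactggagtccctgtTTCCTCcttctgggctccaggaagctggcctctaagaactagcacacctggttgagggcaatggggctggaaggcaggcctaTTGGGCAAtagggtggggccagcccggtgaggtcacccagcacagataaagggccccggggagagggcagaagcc
Retnlg: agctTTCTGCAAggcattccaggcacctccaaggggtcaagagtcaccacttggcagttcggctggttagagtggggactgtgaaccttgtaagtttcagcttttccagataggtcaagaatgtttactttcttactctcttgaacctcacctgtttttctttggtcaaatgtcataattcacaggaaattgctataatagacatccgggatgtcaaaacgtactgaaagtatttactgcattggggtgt
The C/EBP core was found 2 times before Ngp, beginning 138 and 11 bases upstream of the start. It was found 1 time before Ltf, beginning 75 bases upstream. The upstream Ngp match read TTGCCCAA. The Ngp match nearer the start and the Ltf match read TTGGGCAA, which is TTGCCCAA read on the other strand. The ETS core was found 1 time before Ltf, on the other strand, beginning 157 bases upstream. Retnlg held a C/EBP core match, TTCTGCAA, beginning 246 bases upstream, and the Camp window held neither set of letters. Of 8638 table genes with such a window in the RefSeq set, 8.06% held the C/EBP core, 23.1% the ETS core and 1.83% both. Of 11 secondary granule genes with a window, 4 held the C/EBP core (Ngp, Ltf, Lcn2 and Mmp8) and 6 the ETS core. These matches describe letters and not bound sites.

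All 6 markers were more abundant in cluster 0 BM neutrophils than in blood neutrophils of clusters 1 and 2, and Camp, Ltf and Ngp each made up about 1 to 3 of every 100 UMIs. Levels are counts per 1000000 UMIs (CPM) summed over the cells of a sample. Since a 3′ method counts each molecule once whatever its length, they were not divided by length. In marrow Camp reached 15806 and 23313 CPM after PBS, and 13399 and 17097 CPM after LPS. In blood cells of clusters 1 and 2 it was at 34.4 and 17.7 CPM in the PBS-primed samples and at 3511 and 3638 CPM in the LPS-primed samples. The lowest marrow sample was thus above the highest blood sample, and within blood the LPS-primed samples were far above the PBS-primed samples.

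Ltf was at 9181, 11022, 8446 and 10271 CPM in the 4 marrow samples and at 4.96, 6.31, 1421 and 2065 CPM in the 4 blood samples, PBS-primed samples given first. Ngp was at 21072, 35846, 20709 and 25686 CPM in marrow and at 61.4, 29.0, 8360 and 9526 CPM in blood. Both followed the order seen for Camp, with PBS-primed blood lowest and LPS-primed blood between it and marrow. Adpgk was at 1112, 1367, 1278 and 1284 CPM in marrow and 0.993, 2.21, 99.2 and 142 CPM in blood. Cd177 was at 1436, 1524, 1420 and 1583 CPM in marrow and 83.2, 76.1, 373 and 632 CPM in blood. Ly6g was at 1112, 1105, 969 and 841 CPM in marrow and 49.0, 124, 270 and 287 CPM in blood. The 3 less abundant markers thus varied little between the marrow samples, and all 6 had no overlap between marrow and blood samples. Of 8124 genes over 10 CPM on either side, 5.28% were higher in cluster 0 and 7.14% lower without such overlap, values that the clustering itself used.

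The mean marrow level was 20.6 times the mean blood level for Adpgk, 11.1 times for Ltf, 9.67 times for Camp, 5.75 times for Ngp, 5.45 times for Ly6g and 5.13 times for Cd177. LPS-primed blood sample 2 held these ratios down. Without it the log2 ratio went from 4.34 to 5.17 for Adpgk and from 3.47 to 4.35 for Ltf. The log2 ratio likewise went from 3.27 to 3.87 for Camp, from 2.52 to 3.196 for Ngp and from 2.35 to 3.06 for Cd177. The median log2 ratio of the 6 was 2.90. It was 5.07 against cluster 1 alone and 1.81 against cluster 2 alone, which in these samples held LPS-primed blood cells only, and 3.41 or 3.53 when LPS-primed blood sample 1 or 2 was left out. Over all 8124 genes the median log2 ratio was -0.29 against cluster 1 and 0.99 against cluster 2, so ratios to cluster 2 are read against that shift. The second batch gave the same direction for all 6 but smaller log2 ratios for Camp (2.29), Ltf (1.98), Cd177 (1.61) and Ngp (1.42), with pooled Camp at 20181 and 13192 CPM in PBS- and LPS-primed marrow against 198 and 6616 CPM in blood. Its Ngp level was closer between tissues in LPS-primed mice, 23311 CPM in marrow and 19983 CPM in blood.

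**Figure D1:**
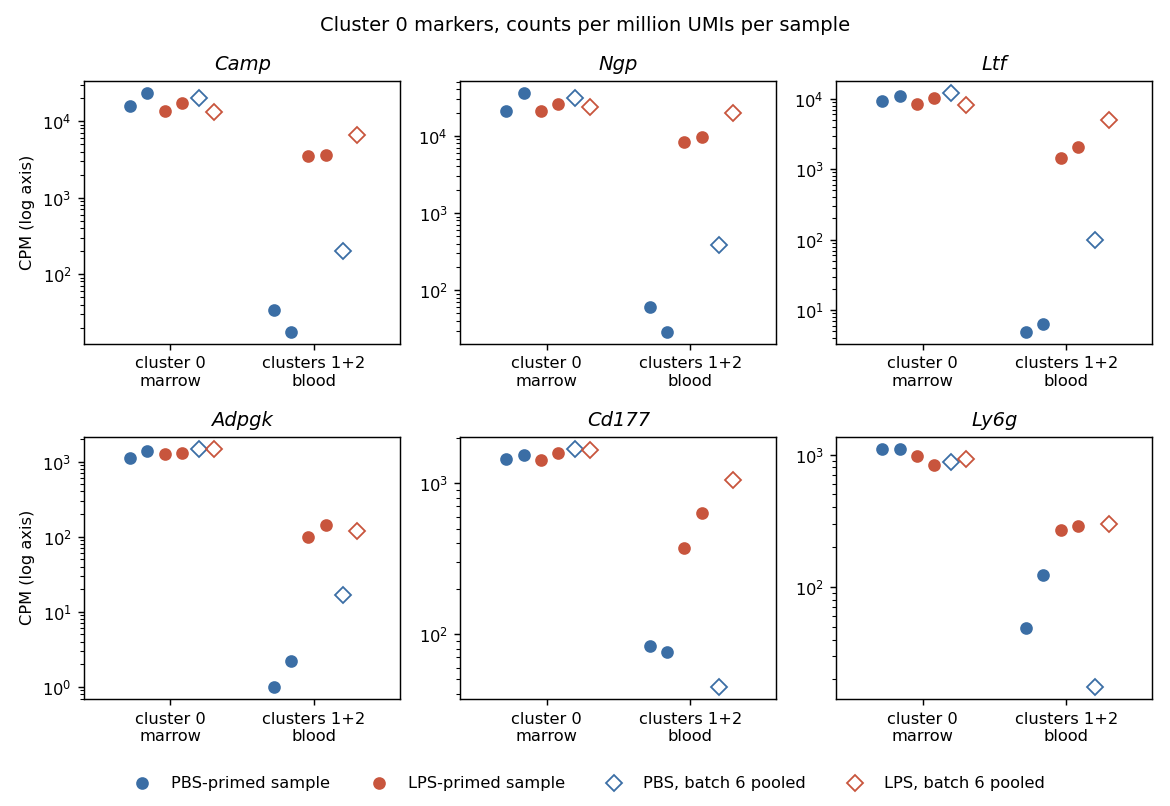
Level of the 6 marker transcripts (CPM, log axis) in cluster 0 marrow cells and in blood cells of clusters 1 and 2. Filled circles are the 4 marrow and 4 blood samples (blue PBS-primed, red LPS-primed) and open diamonds the pooled cells of the second batch. Every filled marrow circle sits above every filled blood circle, for example 13399 to 23313 against 17.7 to 3638 for Camp.

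Every member carried UMIs of Camp, Ltf and Ngp, 655 of 655 for each. Cd177 was counted in 652 members, Adpgk in 639 and Ly6g in 622. At an equal 5000 UMIs per cell Camp was still counted in all 655, whereas 9 members had no Ltf, 3 no Ngp, 85 no Cd177, 118 no Adpgk and 200 no Ly6g UMI. In PBS-primed blood cells of cluster 1, where Camp was near its lowest, 40.4% and 42.4% of cells had a Camp UMI, at median depths of 49761 and 32292 UMIs against 44145 to 80619 in the marrow samples. At 5000 UMIs these shares were 10.1% (exact 95% interval 4.73 to 18.3%) and 15.3% (8.40 to 24.7%). In LPS-primed blood Camp was counted in all 42 cluster 2 cells of each sample, at 5000 UMIs in 81.0% and 92.9%. Among LPS-primed cluster 1 cells it was counted in 48 of 48 and 34 of 35. Ngp was also counted in all 42 cluster 2 cells of each sample. Presence of Camp or Ngp alone therefore did not set the members apart from cluster 2. Camp, Ltf and Ngp were thus counted in every member and the other 3 markers in most, for genes whose values the clustering had used. The 55 marrow cells outside cluster 0, of which 54 were in cluster 1, had Camp at 1728 CPM in the labelled plates and 1995 CPM in the second batch. The 17 blood cells inside cluster 0, pooled, had Camp at 1511 CPM, Ngp at 3336 CPM and Retnlg at 40605 CPM.

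The 25 most abundant transcripts took 48.7% ± 3.71 (SD, n = 4) of the members' UMIs, with 50.05% and 53.4% in the PBS-primed and 45.9% and 45.6% in the LPS-primed samples. In blood the same 25 took 27.2% and 27.8% in the PBS-primed and 40.7% and 43.3% in the LPS-primed samples, below each marrow sample. The calcium-binding pair S100a8 and S100a9, whose proteins form calprotectin, alone gave 26.6% ± 2.02 (SD, n = 4). S100a8 was at 166186, 173029, 156354 and 149080 CPM in the marrow samples and at 80256, 82292, 134750 and 148576 CPM in blood. The highest blood sample was therefore only just under the lowest marrow sample, and S100a8 was high in every neutrophil group.

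Next in order came Retnlg with 3.35% of UMIs, Tmsb4x (thymosin β4, an actin monomer binder) with 2.71%, Ngp with 2.58%, Camp with 1.74% and Lcn2 (lipocalin 2, which binds bacterial siderophores) with 1.304%. Malat1 (a nuclear noncoding RNA), Lyz2 (lysozyme), Actb (actin), Ltf, Mmp8 (neutrophil collagenase) and Anxa1 (annexin A1, which limits neutrophil recruitment) followed with 0.622 to 1.24%. The rest of the 25 were Wfdc21, S100a11, Chil3, Ftl1, Mmp9, Ifitm6, Pfn1, S100a6, Fth1, Fcer1g, Tyrobp and Cybb. Of the 25, 17 were also among the 25 most abundant transcripts of clusters 1 and 2. Cluster 0 was thus set off less by which transcripts led than by the granule genes among them. Fth1, the ferritin heavy chain that stores iron, went the other way, with 3319, 2816, 3816 and 3397 CPM in marrow against 7785, 8431, 36167 and 34238 CPM in blood.

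**Figure D2:**
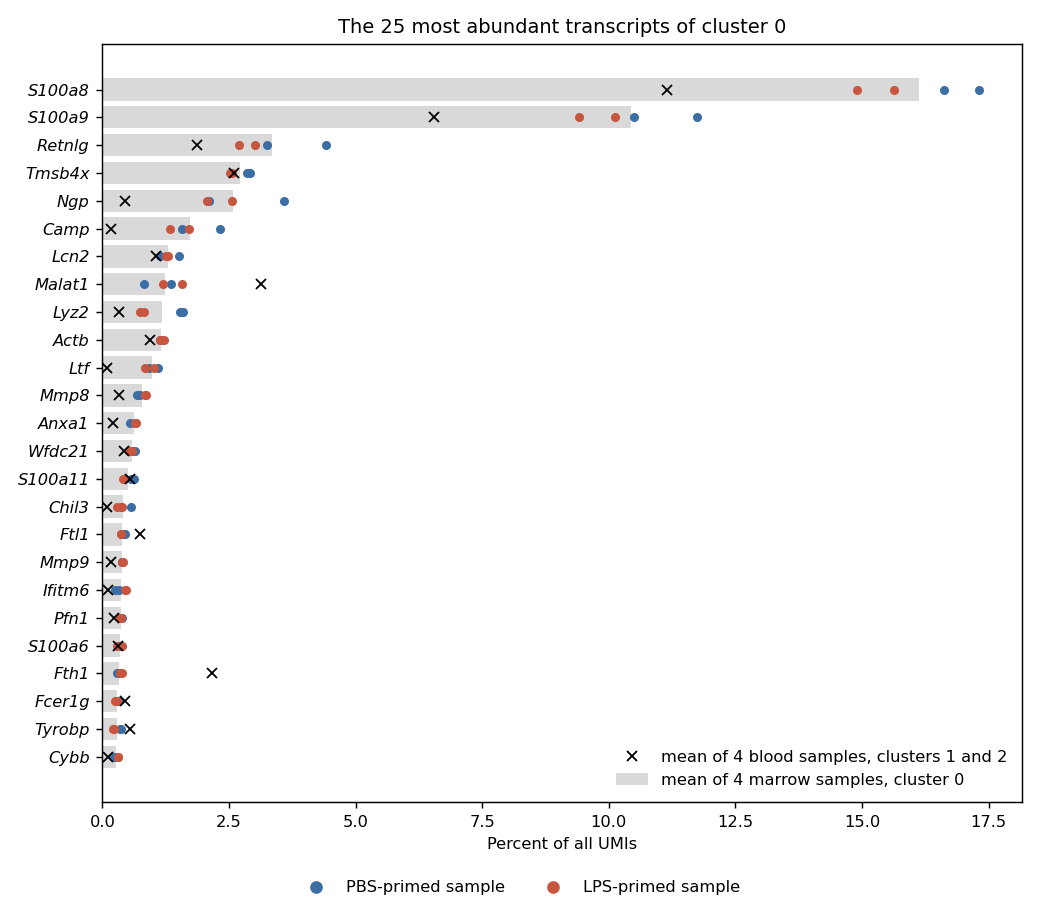
The 25 most abundant transcripts of cluster 0 marrow cells, as percent of all UMIs. Grey bars run to the mean of the 4 marrow samples, circles are those samples (blue PBS-primed, red LPS-primed) and crosses the mean of the 4 blood samples of clusters 1 and 2. S100a8 and S100a9 lead with 16.1% and 10.4%, and the largest ratios of bar to cross are those of Ltf, Camp and Ngp.

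Among the secondary granule genes, 9 of 14 were higher in all 4 marrow samples than in any blood sample, 1 was lower and 4 overlapped. Their median log2 ratio was 2.03. Over all 8124 genes the median was -0.20, and 5.28% were higher without overlap. Against cluster 2 alone the median of the list was 0.92, just under the 0.99 over all genes, and in the second batch the list summed to 98119 CPM in LPS-primed marrow and 98626 CPM in LPS-primed blood. Besides the markers, Chil3 (the chitinase-like lectin Ym1) was at 3630, 5668, 2989 and 3955 CPM in marrow against 3.57, 3.47, 1253 and 2251 CPM in blood. Mmp8 was at 7379, 6817, 8538 and 8345 CPM in marrow against 1008, 1118, 5255 and 5699 CPM in blood. Pglyrp1, a peptidoglycan recognition protein, was at 1953 to 2365 CPM in marrow and 971 to 1368 CPM in blood. Members of the same granule thus ranged from under 2-fold to over 10-fold differences.

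Lcn2 overlapped, since LPS-primed blood held 18402 and 21294 CPM, above all 4 marrow samples (11413 to 15108 CPM), and PBS-primed blood only 1210 and 1122 CPM. Hp (haptoglobin, which binds free hemoglobin) was the member that was lower in marrow, 2199 to 2725 CPM against 3009 to 4801 CPM. Olfm4, a granule glycoprotein known to be present in only some neutrophils, was at 199, 109, 582 and 207 CPM in marrow against 0.794, 0, 58.3 and 1.96 CPM in blood. This order did not hold in the second batch, where pooled LPS-primed blood had 700 CPM of Olfm4 and LPS-primed marrow 396 CPM.

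Primary granule transcripts were low. The list summed to 0.654, 19.9, 51.4 and 36.5 CPM in cluster 0 and to 9.47 to 82.0 CPM in blood, and all 3 of its genes over 10 CPM overlapped. Ctsc, the protease that activates granule serine proteases, was its highest member with 0.327, 19.9, 33.8 and 23.3 CPM. Mpo (myeloperoxidase) had 0, 0, 0 and 0.124 CPM and Elane (neutrophil elastase) 0, 0, 0.413 and 0 CPM in the 4 samples. A count of 0 allows up to 3 UMIs at these summed depths. In the second batch, pooled PBS-primed members held 8.40 CPM of Mpo and 19.8 CPM of Elane. Of the proliferation genes, 9 were over 10 CPM and all 9 overlapped with blood. Mki67, a marker of cycling cells, was at 25.01, 28.7, 71.0 and 62.5 CPM in cluster 0, and Top2a and Cdk1 were under 1 CPM in each sample. Cluster 0 thus held far more of the secondary than of the primary granule list.

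Tertiary granule and secretory vesicle genes differed less, with 4 of 10 higher in marrow, none lower and a median log2 ratio of 0.53. Over all 8124 genes 5.28% were higher without overlap and the median log2 ratio was -0.20. Mmp9 (gelatinase B) was at 3945, 3786, 4043 and 3824 CPM in marrow against 2434, 1962, 1036 and 1023 CPM in blood. Cybb, the catalytic subunit of the NADPH oxidase, was at 2234, 2137, 3084 and 3158 CPM in marrow. In blood it was at 119 and 82.4 CPM in the PBS-primed samples and at 2000 and 2121 CPM in the LPS-primed samples. Itgam and Itgb2, the chains of the adhesion receptor Mac-1, were also higher in each marrow sample. Among 7 granulocyte transcription factors over 10 CPM only Cebpe differed without overlap, at 129, 313, 102 and 168 CPM in marrow against 8.54, 17.0, 2.52 and 13.7 CPM in blood. Spi1 (PU.1), needed for myeloid fate, was at 574 to 988 CPM in marrow and 917 to 1360 CPM in blood, and overlapped.

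Of all genes with at least 100 CPM on the higher side, 169 were higher in cluster 0 without overlap, and the 10 with the largest ratios were Tinagl1, Adpgk, Lta4h, Golim4, Olfm4, Dars, Cebpe, Zmpste24, Inhba and Zdhhc3. Tinagl1, a secreted matrix protein, was at 105, 207, 97.7 and 92.5 CPM in marrow against 0, 0, 0.473 and 15.7 CPM in blood. Lta4h, the hydrolase that completes leukotriene B4, was at 220, 526, 274 and 265 CPM against 25.8, 7.58, 5.04 and 28.9 CPM. Inhba, the activin A subunit, was at 51.3, 102, 176 and 330 CPM against 0.199, 0.316, 44.5 and 7.30 CPM. The folds of these 10 genes lay between 11.95 and 31.1, and all but Olfm4 kept the direction in the second batch.

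Genes tied to circulating neutrophils were lower or overlapped. Of 19 blood maturity genes 9 were lower in every marrow sample, none was higher and 10 overlapped, with a median log2 ratio of -1.28. Over all 8124 genes 7.14% were lower without overlap and the median log2 ratio was -0.20. Csf3r, the receptor for the growth factor G-CSF, was at 1863, 1075, 1584 and 1263 CPM in marrow against 6746, 5832, 2816 and 2467 CPM in blood. Srgn (serglycin, the granule proteoglycan core) was at 1461, 1028, 1524 and 1427 CPM against 5637, 4772, 8392 and 8859 CPM. Il1b, the inflammatory cytokine interleukin-1β, was at 128, 143, 215 and 305 CPM against 5550, 6613, 3616 and 2965 CPM. Retnlg, often counted with the mature genes, overlapped, with 44071, 32559, 30196 and 27062 CPM in marrow against 10863 and 11629 CPM in PBS-primed and 24669 and 27366 CPM in LPS-primed blood.

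Among the marrow retention and release genes Csf3r was lower, as above, and the chemokine receptors overlapped. Cxcr2 was at 876 to 2266 CPM in marrow and 1882 to 2883 CPM in blood, and Cxcr4, which holds neutrophils in marrow, at 20.5 to 64.9 CPM and 10.3 to 152 CPM. Of 12 interferon response genes 9 were lower in marrow and 3 overlapped, with a median log2 ratio of -4.62. Over all 8124 genes 7.14% were lower without overlap and the median log2 ratio was -0.20. Rsad2 (viperin, an antiviral enzyme) was at 118, 82.2, 96.8 and 206 CPM in marrow and at 460, 243, 5378 and 5074 CPM in blood. Of 13 NF-κB response genes 6 were lower and 7 overlapped, with a median of -3.02. Sod2, the mitochondrial superoxide dismutase, was at 1.63, 21.9, 8.80 and 33.7 CPM in marrow against 20.3 and 50.2 CPM in PBS-primed and 1021 and 1183 CPM in LPS-primed blood. The widest gaps in these lists lay between cluster 0 and LPS-primed blood, the only blood samples with cluster 2 cells. Of 74 cytosolic ribosomal protein genes 2 were lower, a smaller share than over all genes, and 72 overlapped, with a median log2 ratio of -0.61. This median was -0.79 against cluster 1 alone and 0.76 against cluster 2 alone, where all genes had -0.29 and 0.99.

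The 10 genes with the lowest ratios among 224 lower without overlap were Ccl4, Cxcl10, Mup3, Saa3, Ctla2a, Alb, AW112010, Ttr, Ccl5 and Serpina1e. Cxcl10, an interferon-induced chemokine, was at 0.327, 2.25, 1.1003 and 0.868 CPM in marrow against 12.7, 20.2, 2151 and 2191 CPM in blood. Ccl4, a macrophage inflammatory protein, was at 0 to 0.751 CPM in marrow against 21.8, 36.0, 1062 and 1743 CPM in blood. Mup3, Alb, Ttr and Serpina1e are secreted proteins of hepatocytes. In blood of the labelled plates Alb was at 456, 926, 188 and 182 CPM, whereas in blood of the second batch it was at 0.310 and 0.188 CPM. For these 4 genes the direction turned in the second batch, so their place among the lowest ratios rested on the blood plates of 1 batch.

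Transcripts that define other lineages were low in cluster 0. B lineage genes summed to 0 to 0.327 CPM over the 4 samples against 0.473 to 110 CPM in blood, with 3 of 5 at 0 in cluster 0. T and NK lineage genes summed to 13.8 to 44.5 CPM, led by Cd3d (21.6, 44.5, 39.5 and 4.96 CPM), with 4 of 7 at 0, against 1.73 to 487 CPM in blood. Platelet genes summed to 0 to 0.413 CPM with 3 of 4 at 0, among them Pf4 and Ppbp, against 77.0 to 422 CPM in blood. Both erythroid genes were at 0 in the 4 samples, against 0.534 to 27.8 CPM in blood. These lists were thus far below the neutrophil transcripts above.

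Monocyte and macrophage genes summed to 818 to 1067 CPM in cluster 0 and 198 to 1000 CPM in blood. Of this sum Ly6c2, which marrow neutrophils also express, made up 786 to 979 CPM, and Ccr2 and Cx3cr1 were under 1 CPM. Hepatocyte genes summed to 0.876 to 16.2 CPM against 821 to 2285 CPM in blood, where the values came from the labelled plates. Dendritic cell genes summed to 2.00 to 9.08 CPM against 141 to 252 CPM, stem and progenitor genes to 1.14 to 23.0 CPM against 16.7 to 125 CPM, eosinophil genes to 12.6 to 25.3 CPM against 0 to 23.2 CPM, and basophil and mast cell genes to 0 to 0.138 CPM against 0 to 6.62 CPM. The part of blood platelets, lymphocytes and hepatocyte RNA in the lower ratios was not tested. S100a8, S100a9, Ly6g, Itgam and Csf3r, each present in all samples, thus bore on the neutrophil part of the label only, and Csf3r was lower than in blood. The granule-rich part rested on granule genes such as Camp, Ltf and Ngp. Against cluster 2 alone the secondary granule list did not exceed the shift over all genes (median log2 ratio 0.92 against 0.99).

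UMIs per cell overlapped between members and blood neutrophils. The median member held 44145 and 61539 UMIs in the PBS-primed and 80619 and 76864 in the LPS-primed marrow samples, a mean of 65792 ± 16624 (SD, n = 4). In blood cells of clusters 1 and 2 the mean of the medians was 47584 ± 10819 (SD, n = 4, range 32292 to 57784), a ratio of 1.38. PBS-primed BM sample 1 lay below 3 of the 4 blood samples. Cluster 2 cells alone had medians of 86255.5 and 71938.5 UMIs in the LPS-primed blood samples, above the marrow mean, and in the second batch LPS-primed blood had 95549 UMIs against 64804 in LPS-primed marrow. Median genes per cell were 1216, 1530, 1901 and 2016 in marrow (1666 ± 364, SD, n = 4) and 1693 ± 170 in blood, a ratio of 0.984. At 5000 UMIs the ratio was 0.965. Both LPS-primed samples had more UMIs and genes per cell than the PBS-primed samples, but in the second batch the pooled medians were 87980.5 UMIs and 1848.5 genes in PBS-primed against 64804 UMIs and 1814 genes in LPS-primed members. Single members ran from 5224 to 496311 UMIs and from 507 to 3639 genes.

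The deposited ERCC ratio gives the share of counts from ERCC RNA, artificial transcripts added in equal amount to each well, so that a cell with more RNA of its own has a lower ratio. What the share was taken over is not given in the sources used here. Cluster 0 medians were 0.420 and 0.464 in the PBS-primed and 0.427 and 0.397 in the LPS-primed marrow samples. Blood cells of clusters 1 and 2 had medians of 0.631 and 0.664 in the PBS-primed and 0.517 and 0.509 in the LPS-primed samples. No marrow sample reached a blood sample. The means were 0.427 ± 0.0277 and 0.580 ± 0.0789 (SD, n = 4 each), a difference of -0.153 (two-sided exact permutation test over samples, p = 0.0286, the smallest p that 4 against 4 allows). With any marrow sample left out the exact p was 0.0571 to 0.0857, whereas with a blood sample left out it was 0.0286.

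Against cluster 1 alone in blood, a setting chosen after seeing the data, the difference was -0.188 (exact permutation test, p = 0.0286, n = 4 and 4). Against cluster 2 alone, found in 2 blood samples with medians of 0.453 and 0.400, the difference was 0.000602 (exact permutation test, p = 1, n = 4 and 2, smallest possible p 0.0667). The cluster 2 medians thus lay on either side of the cluster 0 mean, in a comparison too small to pass the threshold. The 2 other clusters also differed in depth, with medians of 45800 UMIs per blood cell in cluster 1 and 90072 in cluster 2. Marrow cells on the same plates could be compared without the step from marrow to blood. In 9 of 9 marrow plates the cluster 0 median lay below that of the plate's cells in clusters 1 and 2, by -0.254 to -0.148, although these were only 1 to 11 cells a plate. In the second batch pooled medians were 0.402 and 0.415 in cluster 0, against 0.613 in PBS-primed and 0.402 in LPS-primed blood.

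**Figure D3:**
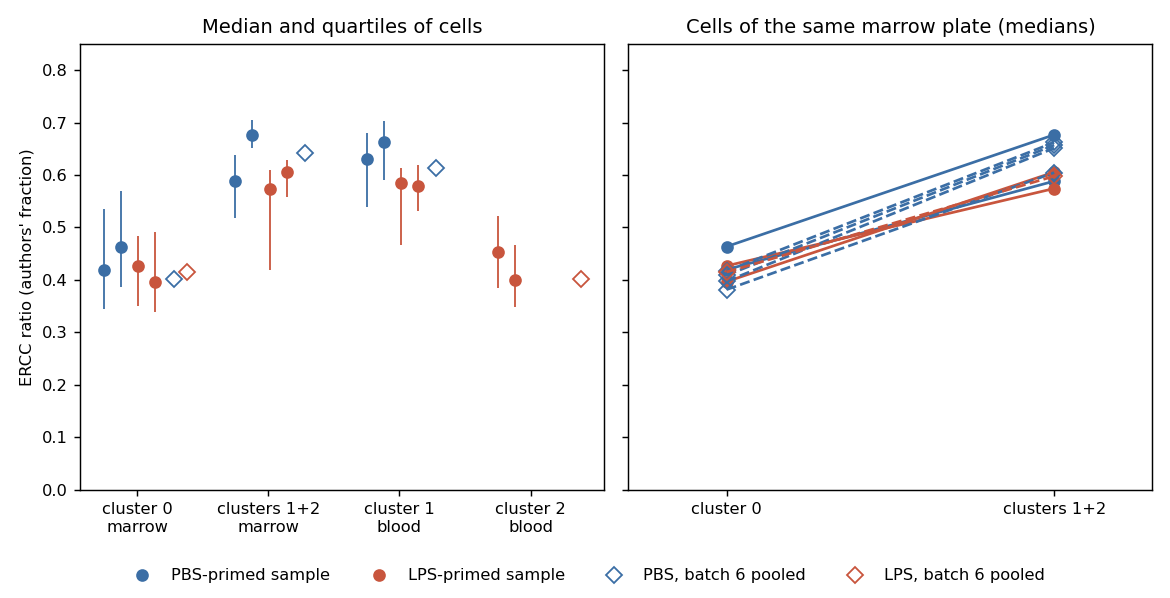
ERCC ratio per cell (share of counts from spiked RNA). Left, the median (point) and quartiles (line) of each sample for cluster 0 marrow, clusters 1 and 2 in marrow, and clusters 1 and 2 in blood. Right, medians on each of the 9 marrow plates, joined by a line (dashed for the second batch), with cluster 0 lower on all 9.

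Within cluster 0 Camp, Ngp and Ltf differed widely between cells of a sample. Median Camp per cell was 2303, 6877, 5527 and 6373 CPM in the 4 samples. From the lowest to the highest decile of cells it ran from 669 to 31998 CPM and from 1644 to 36686 CPM in the PBS-primed samples, and from 1047 to 31174 CPM and from 1366 to 35607 CPM in the LPS-primed samples. The highest decile was thus 22.3 to 47.8 times the lowest. For Ngp this ratio was 20.4 to 45.9 and for Ltf 25.4 to 49.8. For Retnlg it was 8.74 to 15.7, for Lcn2 3.70 to 15.1, for S100a8 1.504 to 2.16 and for S100a9 1.34 to 1.97. Calprotectin transcripts were therefore nearly level across the members, while Camp, Ngp and Ltf spanned more than a decade. Other secondary granule transcripts varied in span. Mmp8 (3.69 to 20.7) and Lyz2 (4.63 to 19.2) spanned less, with the highest value of each in PBS-primed BM sample 1. Cd177 (9.47 to 33.9) overlapped with Camp, Ngp and Ltf, and Chil3 (41.3 to 126) spanned more than these 3 in each sample. The lowest member of a labelled sample had 435 CPM of Camp, above the median of cluster 1 cells in each blood sample (0 to 324 CPM). Cluster 2 medians were 631 and 820 CPM, above the lowest members of some samples, and its highest deciles 14451 and 12925 CPM, so the ranges of clusters 0 and 2 overlapped.

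**Figure D4:**
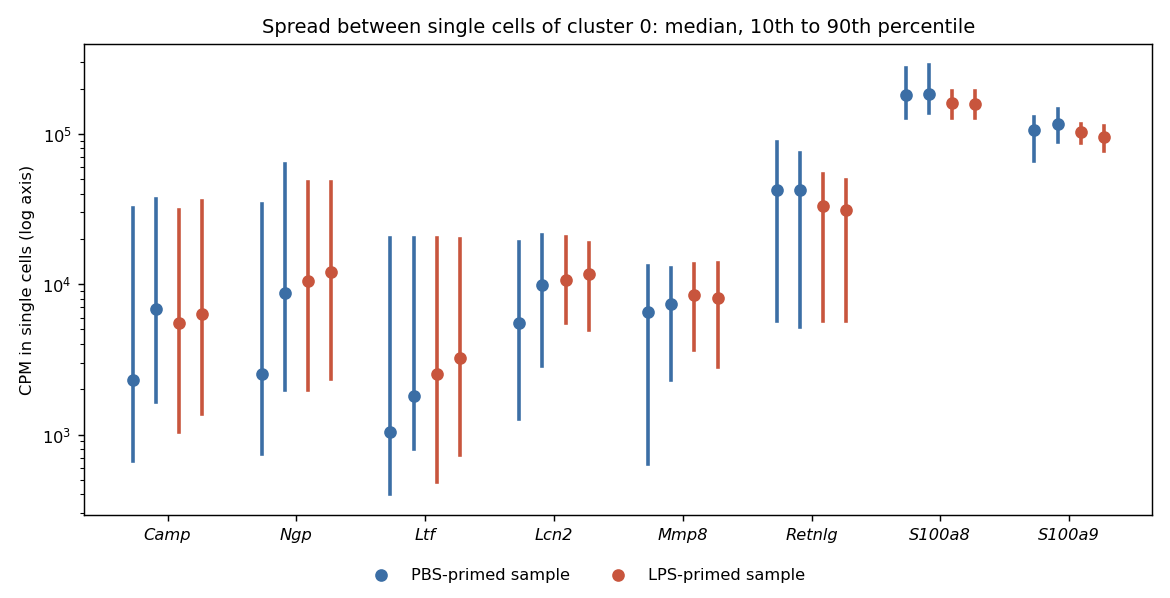
Level per cell (CPM, log axis) of 8 transcripts in cluster 0 marrow cells, with the median (point) and the range from the lowest to the highest decile of cells (line) for each sample. Blue is PBS-primed and red LPS-primed. The lines of Camp, Ngp and Ltf span 20.4-fold or more, those of S100a8 and S100a9 at most 2.16-fold.

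At an equal 5000 UMIs, 736 genes had a mean of at least 0.5 UMI per cell in each sample. The spread beyond counting error was expressed as the excess squared coefficient of variation (CV), the variance less the mean over the squared mean. Its median over the 736 genes was 3.15, and it was over 1 for 662 of them. The sample medians were 6.65 and 3.60 in the PBS-primed and 1.93 and 2.00 in the LPS-primed samples, so PBS-primed BM sample 1 was again the farthest out. Only S100a9 (0.0282) and S100a8 (0.0532) were under 0.1. The excess CV, the square root of the excess, was 112% for Camp, 112% for Ngp and 113% for Ltf. It was 58.2% for Retnlg, 54.6% for Mmp8, 39.0% for Actb, 23.1% for S100a8 and 16.8% for S100a9. Once squared, all of these values lay below the median of 3.15. On this measure Camp, Ngp and Ltf thus varied less than the median gene, though more than the other abundant transcripts named here.

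The 10 most variable genes were Stfa1, Cnih4, Olfm4, Tmpo, Hist1h2bc, Mgam, Sp3, Mtmr6, Pafah1b1 and Fcho2. Their means were low, a median of 0.641 to 1.75 UMI per cell over the samples. Stfa1, a stefin family inhibitor of cathepsins with close copies in the genome that reads may not tell apart, had an excess of 30.8 and 228, 35.7, 260 and 489 CPM in the 4 samples. Olfm4 had an excess of 16.2. Of the 10, 7 were also among the 10 most variable at 2000 UMIs, but only 2 in the second batch, so this order was not stable between batches.

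Camp, Ngp and Ltf varied together. Across the cells of a sample (76 to 86 cells), Spearman's rho between Camp and Ngp was 0.80 to 0.92, with a median of 0.84 over the 4 samples. It was 0.78 to 0.88 between Camp and Ltf, 0.61 to 0.82 between Camp and Chil3 and 0.26 to 0.59 between Camp and Lyz2. Camp went against Retnlg (-0.79 to -0.55), Srgn (-0.73 to -0.58), Csf3r (-0.58 to -0.49) and Cxcr2 (-0.56 to -0.33). With Cebpe it gave 0.26 to 0.45, with Mmp8 -0.11 to 0.27 and with S100a8 0.01 to 0.23. Cells high in Camp were thus high in Ngp, Ltf and Chil3 and lower in Retnlg, Srgn, Csf3r and Cxcr2, while Mmp8 and S100a8 showed little relation to Camp. Adpgk, Cd177 and Ly6g were not examined in this way. These are descriptions over cells that share a plate and a fixed total of UMIs, so that a higher count of some abundant transcripts lowers the others.

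The same cells differed in RNA content. Camp had a rho of -0.63 to -0.53 with the ERCC ratio, Ngp -0.64 to -0.50 and Ltf -0.67 to -0.48, and Retnlg 0.11 to 0.52. With the cell's total UMIs the values were smaller, 0.04 to 0.25 for Camp. Members rich in Camp, Ngp and Ltf therefore had less spiked RNA among their counts. Over the same cells total UMIs and the ERCC ratio gave -0.73 to -0.17, and the number of genes at 5000 UMIs gave 0.12 to 0.60 with Camp.

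LPS priming was tested within cluster 0 over 2 PBS-primed and 2 LPS-primed samples, a comparison that the clustering did not use. Of 7045 genes, 3 passed an adjusted p of 0.05 in edgeR's quasi-likelihood test (0.0426%), 2 higher and 1 lower in LPS-primed cells, and 600 had an unadjusted p under 0.05. Wfdc17, a small WAP-domain protein made by activated myeloid cells, was at 28.9 and 23.3 CPM in PBS-primed and 559 and 660 CPM in LPS-primed samples. It rose by 4.33 ± 0.32 (SE) on the log2 scale (edgeR adjusted p = 0.00114). Lilr4b, a leukocyte immunoglobulin-like receptor, was at 627 and 587 CPM against 2606 and 2155 CPM and rose by 1.76 ± 0.19 (edgeR adjusted p = 0.0119). Lyz2 was at 15316 and 15941 CPM against 7343 and 8176 CPM, and fell by 1.23 ± 0.12 (SE) on the log2 scale (edgeR adjusted p = 0.0053). That none of these 3 genes overlapped between treatments follows from their choice by this test and is not separate evidence.

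The pooled second batch went the same way, from 212 to 1438 CPM for Wfdc17, from 672 to 2156 CPM for Lilr4b and from 15119 to 6696 CPM for Lyz2. All 3 were called in each of 13 other settings, with a highest adjusted p of 0.0344. The number of genes called was less stable. It was 68 without PBS-primed BM sample 1, 70 without PBS-primed BM sample 2, 12 without LPS-primed BM sample 1 and 17 without LPS-primed BM sample 2. Reads of Lilr4b and of its close copy Lilrb4a, and of Lyz2 and Lyz1, may be split between the copies. Lilrb4a was at 898 and 851 CPM against 2438 and 2178 CPM, with a log2 difference of 1.19 ± 0.18 (edgeR adjusted p = 0.113).

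None of the 6 markers passed the test. Their log2 differences were below 0 in this fit, with a median of -0.42 against 0.01 over all genes tested. Camp had a log2 difference of -0.58 ± 0.19 (SE, edgeR adjusted p = 0.509) and Ltf of -0.33 ± 0.14 (adjusted p = 0.58). Camp was called, lower after LPS, in 4 of 13 other settings: with DESeq2, without a filter on low counts, with a replicate block and without PBS-primed BM sample 1 (log2 difference -0.85, edgeR adjusted p = 0.00613). Ngp was called in 3 of them, among them without PBS-primed BM sample 1 (log2 difference -0.86, edgeR adjusted p = 0.00266). With each cell thinned to 5000 UMIs the log2 differences were -0.10 for Camp and 0.08 for Ngp. When counts were scaled by library size only, without TMM factors, the median over all genes was 0.22 and not 0.01, so small differences are to be read against that shift. Of 14 secondary granule genes only Lyz2 was called, and of 19 blood maturity genes only Wfdc17. None of 10 interferon response genes tested passed, with a median of 0.72 and 7 above 0, nor any of 11 NF-κB response genes, with a median of 0.61 and 9 above 0. Irf7, which drives interferon genes, was at 23.4 and 27.9 CPM against 138 and 77.1 CPM (edgeR adjusted p = 0.52). These levels lay far below those of LPS-primed blood, where Irf7 was at 1055 and 1081 CPM. Of the primary and tertiary granule, calprotectin and annexin, transcription factor, proliferation and marrow retention lists, no gene was called.

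**Figure D5:**
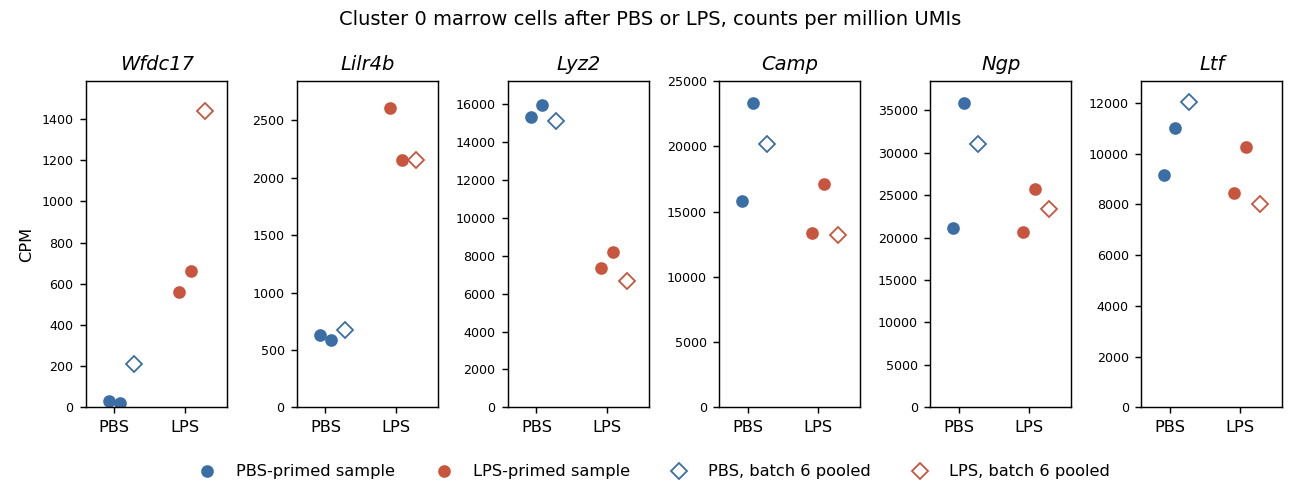
Levels of Wfdc17, Lilr4b, Lyz2, Camp, Ngp and Ltf (CPM) in cluster 0 marrow cells of PBS-primed (blue) and LPS-primed (red) mice. Filled circles are the 2 samples of each treatment and open diamonds the pooled second batch. The treatments separate for Wfdc17 (23.3 and 28.9 against 559 and 660), Lilr4b and Lyz2, and overlap for Camp (13399 to 23313), Ngp and Ltf.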

How the data were processed

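SCRB-seq libraries were made from single neutrophils picked into plates. The authors deposited 1 table of UMI counts per gene and cell (10970 genes, 1421 cells), unnormalized, and 1 table with each cell's cluster and ERCC ratio, a fraction from 0 to 1. Per the labels and the study's methods, reads were trimmed with cutadapt 1.15, aligned to mm9 with STAR 2.6.0a and counted with HTSeq 0.11.2, and clusters were called with Seurat. Per the study's methods, the authors kept cells within limits on detected genes, UMIs, their ratio and the ERCC ratio, and genes found in enough cells. No step against doublets is given in the sources used here. No further cell was removed and no doublet caller was run, and no column of values was left out.

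Cells were summed by sample and cluster and scaled to CPM, counts per 1000000 UMIs. Log2 ratios between clusters took the mean over 4 samples plus a pseudocount of 1 CPM, over genes with at least 10 CPM on either side. To compare cells of unlike depth, each was thinned to 5000 UMIs (random seed 1), which no member fell short of. LPS and PBS were compared on the summed counts with edgeR 4.0.16 (R 4.3.3, TMM, filterByExpr, quasi-likelihood test, Benjamini-Hochberg adjustment over all genes tested), with DESeq2 1.42.0 and limma 3.58.1 as alternatives. ERCC medians per sample were compared with exact permutation tests (scipy 1.17.1). Scripts were tested on simulated data. Replicate samples of a treatment differed by far more than sampling noise (chi-square per degree of freedom 97.6 and 60.3), so none was counted as a duplicate. Suffixes in the cell names match the replicate numbers of the labels, but could mark plates of 1 preparation.

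Named genes were the 6 markers, the 25 most abundant transcripts, the 10 highest and lowest ratios with at least 100 CPM and no overlap of samples, the genes called under LPS, the 10 most variable genes and up to 4 of the highest members of each list. The members, markers and lists were chosen with earlier results of these data known. List members named beyond those, among them Sod2, Irf7, Hp, Pglyrp1 and Il1b, and Lilrb4a, were added after their values were seen. Of 175 listed genes 150 were in the table, and the others were not analysed here. Gene positions came from GENCODE vM1 (9918 genes matched) and promoter sequences from the RefSeq table (GRCm38.p6 annotation), located in mm9 by exact match. The values of 1 listed gene are not reported here.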

Additional observations from a re-analysis of the deposited data

Results flagged for a closer look

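In 2 of 43 sets of 4 marrow samples looked at, 1 sample lay farther from the rest than Dixon's 95% critical value allows, about as many as chance flags at that level. Anxa1 was lowest in PBS-primed BM sample 1, with 5434 CPM against 6408 to 6605 CPM in the other samples (gap over range 0.832). Tinagl1 was highest in PBS-primed BM sample 2, with 207 CPM against 92.5 to 105 CPM (gap over range 0.895).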

How the results depend on the processing

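In place of 3, the number of genes called under LPS was 230 with DESeq2, 82 without a filter on low counts, 7 with each cell thinned, 28 with both batches and a batch term, and 12 to 70 with 1 sample left out, which assumes that a lone sample varies like the other group. It was 3 or 4 with limma, RLE factors, library size alone or all marrow cells. Deviations of samples with equal replicate numbers gave r = -0.02. This rests on a single difference per treatment, so it cannot decide whether the samples were paired. The fit with a replicate block called 100. The cause of these shifts was not tested.

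The ERCC difference of -0.153 was -0.177 to -0.126 with 1 sample left out, -0.0988 in the other batch and -0.213 as the median over the same marrow plates, and turned to 0.000602 against cluster 2 alone. The last 2 settings, and cluster 1 alone, were chosen after seeing the data. The median log2 ratio of the markers, 2.90, was 5.07 and 1.81 against cluster 1 and cluster 2 alone, 2.13 in the other batch and 2.51 to 3.53 with 1 sample left out. In the other batch the log2 ratio turned for Olfm4 (-0.39), Mup3 (2.59), Alb (0.96), Ttr (2.02) and Serpina1e (0.98), while 25 of 30 ratios kept their direction there and all 30 did in the other settings. With 2 samples a treatment the common dispersion was 0.912.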
